A study of Mus musculus with 8 samples.

Results

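Opposite movers were genes whose kidney RNA went one way with flavopiridol in wild-type mice and the other way in polycystic mice. For each gene the drug difference (FP minus DMSO) was taken on log2(FPKM + 1), where FPKM is a read density scaled by transcript length and library size, and the wild-type difference was subtracted from the polycystic one. A gene counted as an opposite mover if the 2 drug differences had opposite signs, each was at least 0.5 in size (1.41-fold), and the FP and DMSO libraries did not overlap in either genotype. Of 14391 genes that reached 1 FPKM in 2 or more libraries, out of 20245 entries, 39 were opposite movers. They fell into 9 genes higher with FP in polycystic and lower with FP in wild-type kidney (0.0625% of genes tested) and 30 genes with the reverse pattern (0.208%).

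Whole kidneys of C57BL/6 mice gave 8 poly(A)-selected RNA libraries, 2 in each of 4 groups. WT_DMSO and WT_FP were wild-type kidneys given vehicle or FP; FP is flavopiridol according to the series' design text. PKD_DMSO and PKD_FP were kidneys of mice with autosomal dominant polycystic kidney disease given the same. The sources used here do not give the mutated gene, any Cre driver, the age, the dose or the time of treatment. Whether the 2 replicates of a group came from different mice is not stated in the labels, and each p-value then reflects only how far these libraries spread, which may be technical.

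Flavopiridol inhibits cyclin-dependent kinases, among them CDK9. CDK9 and cyclin T form P-TEFb, the kinase that releases RNA polymerase II from its pause near the start of genes, and the HEXIM and LARP7 proteins with 7SK RNA hold P-TEFb inactive. In polycystic kidney, tubules widen into cysts lined by dedifferentiated cells, raised cyclic AMP drives proliferation and fluid secretion, and injury and inflammatory genes are active.

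Kidney markers were present in all libraries: the proximal phosphate transporter Slc34a1 ranged from 191 to 1879 FPKM, and Umod of the thick ascending limb from 717 to 1291. Slc34a1 was 769 to 1879 in WT and 191 to 397 in PKD. In each genotype it was lowest in FP replicate 2, where the principal cell marker Aqp2 was highest (1344 in WT_FP and 854 in PKD_FP). Umod did not follow this and was lowest in a DMSO library in each genotype. Summed FPKM ranged from 486060 to 572823. The number of reads relative to the first WT_DMSO library was estimated at 0.986 to 1.28 from the most frequent ratio of microRNA entries between libraries. Ratios far from that of equal reads were left out, which limits this range in advance. Replicates of a group correlated at 0.964 to 0.975 across genes, and FP with DMSO libraries of the same genotype at 0.941 to 0.986, so these ranges overlapped. On the second principal component, with 20.1% of the variance, the 2 WT_DMSO libraries lay at 21.8 and -27.4 and the 2 WT_FP libraries at -14.2 and 29.8. WT_FP replicate 2 stood apart in fat cell genes: Adipoq was 47.3 FPKM there and 0.25 to 7.40 in the other libraries, and Ucp1 was 99.4 there and 0.17 to 7.34 elsewhere. Leaving this library out kept 8 of the 9 genes of the first class and 18 of the 30 of the second.

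No gene passed the test of the difference of differences (limma on all genes, Benjamini-Hochberg threshold 0.05; 0.00% called), and the smallest adjusted p was 0.239. At an unadjusted p under 0.05, 640 genes had a higher drug difference in PKD (4.45%) and 976 a lower one (6.78%). The difference of differences was above 0 in 45.6% of genes and below 0 in 54.4%. These shares rest on FPKM without further scaling. At the same unadjusted threshold, 827 genes were higher and 762 lower under median-of-ratios scaling, and 841 and 771 under quantile normalization. The median difference of differences over all genes was -0.05 without scaling, -0.005 under the first scaling and 0.01 under the second. Within a genotype, limma called 1 gene higher and 1 lower in PKD (0.00695% each) and 0 in WT (0.00%), where 183 genes had an unadjusted p under 0.05. FP and DMSO libraries did not overlap in 31.4% (higher) and 25.2% (lower) of genes in PKD, and in 16.6% and 5.32% in WT. The drug differences varied more in PKD, with an SD over genes of 0.485, than in WT, with 0.260. Across genes the 2 drug differences, which share no library, had a Pearson correlation of 0.05 and a Spearman correlation of 0.05. Genes share libraries and are no replicates, so this describes the tables.

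Opposite signs alone were common. In 6825 genes (47.4%) the 2 drug differences had opposite signs, with 2296 higher in PKD and lower in WT (16.0%) and 4529 the reverse (31.5%). With no overlap between FP and DMSO in either genotype, 303 (2.11%) and 803 (5.58%) were left, and the size limit reduced these to 9 and 30. With the same limits, 42 genes were higher with FP in both genotypes (0.292%) and 8 lower in both (0.0556%). Just inside the limit stood Mylip and Derl3, whose smaller drug differences were 0.502 and 0.515 in size, and just outside it Ndst1 and Slc9a3 with 0.498 and 0.491. These values chose the members, so the members' own drug differences are given below as descriptions.

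**Figure D1:**
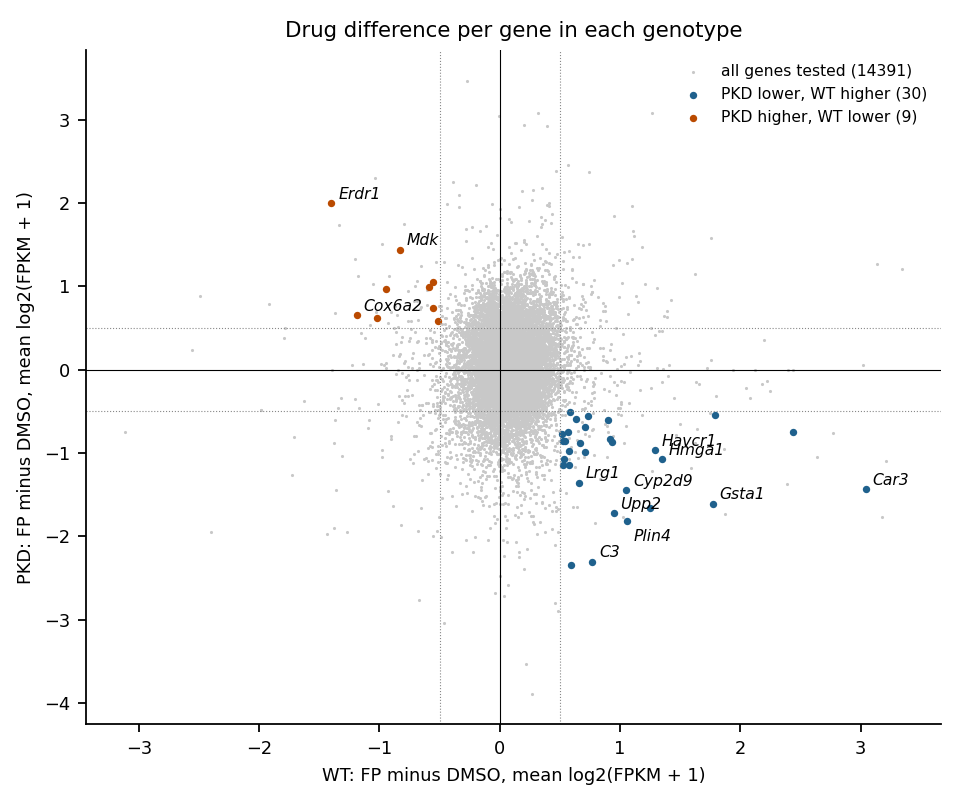
Each point is a gene, with its drug difference (FP minus DMSO, mean log2(FPKM + 1) of 2 libraries each) in WT on the horizontal axis and in PKD on the vertical axis; dotted lines mark 0.5 in either direction. The 30 blue genes lie at lower right, with Car3 farthest to the right, and the 9 orange genes at upper left, with Erdr1 highest; a few grey genes share these corners because their libraries overlapped.

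Of the 30 genes lower with FP in PKD and higher with FP in WT, several encode secreted or injury-linked proteins. Complement C3, the central component of the complement cascade (chr17:57203967-57228136, GRCm38.p6), was 2.86 and 3.22 FPKM in the WT_DMSO libraries, 4.46 and 7.69 in WT_FP, 241 and 124 in PKD_DMSO, and 27.2 and 43.2 in PKD_FP. Every PKD library was above every WT library. The PKD_FP libraries lay closer to the WT level than the PKD_DMSO libraries, while WT_FP lay above WT_DMSO. The drug difference was -2.30 in PKD and 0.77 in WT, which gave a difference of -3.07 with an SE of 0.54 (limma, adjusted p = 0.384).

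Lrg1, a secreted leucine-rich glycoprotein of the acute phase (chr17:56119678-56121946), followed the same pattern at 2.07 and 3.01 FPKM in WT_DMSO, 3.30 and 6.10 in WT_FP, 31.9 and 41.2 in PKD_DMSO, and 15.0 and 12.2 in PKD_FP. Every PKD library was above every WT library, and the PKD groups did not overlap. The drug difference in WT came mostly from WT_FP replicate 2. The difference of differences was -2.01, and -1.65 without WT_FP replicate 2. In that setting neither C3 nor Lrg1 remained an opposite mover, because their WT drug difference was then under 0.5 in size.

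C3 was the 1 opposite mover among the complement and acute phase genes. Of 29 genes listed, 23 were measured; 15 had PKD lower and WT higher by sign (31.5% of all genes did), 0 the reverse (16.0% of all genes), and 20 had a lower drug difference in PKD (54.4% of all genes). The list's median drug difference was -0.55 in PKD and 0.26 in WT, and its median difference of differences -0.48, against -0.05 over all genes. That median was -1.004 without PKD_DMSO replicate 1 and -0.33 without PKD_FP replicate 1. At an unadjusted p under 0.05, 7 of 23 were lower (6.78% of all genes) and 0 higher (4.45%), and 0 passed the adjusted threshold. Fga, the fibrinogen alpha chain (chr3:83026153-83033627), was 3.33 and 6.70 FPKM in WT_DMSO, 11.1 and 4.37 in WT_FP, 91.4 and 103 in PKD_DMSO, and 13.2 and 11.2 in PKD_FP. Here the WT groups overlapped while the PKD groups were far apart, so the difference of -3.38 came from PKD. The gamma chain Fgg, next to it on chromosome 3, had a difference of -3.25 with an SE of 0.75, and the complement component C4b -1.42 with an SE of 0.33 (limma, adjusted p = 0.384 for each).

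The 250 bases before the start of C3, Lrg1 and Fga are shown because these genes were high in vehicle-treated polycystic kidney and lower there with FP. They are from RefSeq (GRCm38.p6), 5′ to 3′ along the gene, with motif matches in capitals: chr17:57228137-57228386 minus strand for C3, chr17:56121947-56122196 minus strand for Lrg1, and chr3:83025903-83026152 plus strand for Fga.
C3: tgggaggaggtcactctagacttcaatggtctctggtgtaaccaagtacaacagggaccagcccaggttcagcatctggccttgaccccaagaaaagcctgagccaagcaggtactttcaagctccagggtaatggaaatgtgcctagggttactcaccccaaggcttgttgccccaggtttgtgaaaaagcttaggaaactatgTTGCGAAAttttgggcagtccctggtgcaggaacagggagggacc
Lrg1: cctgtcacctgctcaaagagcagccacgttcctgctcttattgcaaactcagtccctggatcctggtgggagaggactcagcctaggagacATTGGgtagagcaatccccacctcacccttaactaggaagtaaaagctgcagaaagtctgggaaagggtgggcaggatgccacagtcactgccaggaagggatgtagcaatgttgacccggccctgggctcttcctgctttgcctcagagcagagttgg
Fga: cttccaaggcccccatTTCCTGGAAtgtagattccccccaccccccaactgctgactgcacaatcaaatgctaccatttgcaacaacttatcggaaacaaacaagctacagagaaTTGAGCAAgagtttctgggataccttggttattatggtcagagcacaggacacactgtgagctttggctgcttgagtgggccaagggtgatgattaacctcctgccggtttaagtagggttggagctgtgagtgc

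Motifs were searched on both strands in the 250 upstream bases of 32851 RefSeq promoters. The C3 and Fga windows each hold a C/EBP motif (TTGCNNAA, on either strand), 45 and 135 bases upstream, Fga a STAT motif (TTCNNNGAA) 234 bases upstream, and Lrg1 a CCAAT box 159 bases upstream. Of all promoters, 9.56% held the C/EBP motif, 7.02% the STAT motif and 33.8% CCAAT. The cyclic AMP response element (TGACGTCA) was in 1.55%, its half-site (TGACG), which lies within it, in 17.8%, the AP-1 motif (TGANTCA) in 6.75% and TATAAA in 12.4%. The table matched 26 of the 39 opposite movers. Of 22 matched genes in the class lower in PKD, the windows of 5 held the C/EBP motif (C3, Havcr1, Ocel1, Plin1, Zc3h12c) and of 9 CCAAT. The half-site was in 4 and the full cyclic AMP element in 1 (Peg3). The windows of 6 genes held TATAAA, of 1 the AP-1 motif and of 1 the STAT motif. These 22 genes had 27 windows, and a gene counted if any of its windows matched. The shares of all promoters are per window, and per window the C/EBP motif was in 5 of the 27. The windows to show were chosen after expression values were seen, and of 7 motifs searched, the C/EBP and STAT motifs were added after the other 5 gave no match in C3 and its sequence had been viewed. A match is a run of letters and says nothing of binding.

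Havcr1 was the 1 opposite mover among the tubule injury genes. The gene, which encodes the injury receptor KIM-1 of the proximal tubule (chr11:46739822-46779578), was 0.26 and 0.27 FPKM in WT_DMSO, 5.14 and 0.56 in WT_FP, 108 and 143 in PKD_DMSO, and 60.5 and 65.6 in PKD_FP. In WT nearly all of the drug difference came from WT_FP replicate 1, and without that library Havcr1 was no longer an opposite mover. Lcn2, the secreted siderophore-binding injury marker NGAL (chr2:32384637-32387739), was 9.06 and 6.44 FPKM in WT_DMSO, 18.0 and 19.3 in WT_FP, 1125 and 741 in PKD_DMSO, and 476 and 819 in PKD_FP. The WT groups did not overlap, but the PKD groups did, so Lcn2 was not a member, and its difference was -1.73 with an SE of 0.45 (limma, adjusted p = 0.384).

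Of 28 tubule injury genes, all measured, 17 had PKD lower and WT higher by sign (31.5% of all genes), 1 the reverse (16.0%), and 10 the same sign in both genotypes. Their median drug difference was -0.19 in PKD and 0.27 in WT, and the median difference of differences was -0.47; it was -0.85 without WT_FP replicate 1 and -0.25 without WT_FP replicate 2. At an unadjusted p under 0.05, 6 were lower (6.78% of all genes) and 0 higher (4.45%). Matrix metalloproteinase Mmp7 had a difference of -2.28, the epithelial keratin Krt20 -2.29 (-1.53 without WT_FP replicate 2) and the annexin Anxa3 -1.23 (limma, adjusted p = 0.384, 0.384 and 0.397). Mmp7 was 71.3 and 59.5 FPKM in PKD_DMSO, 9.14 and 26.98 in PKD_FP, and at most 0.41 in every WT library, so its WT drug difference was between levels near 0.

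Among signalling and matrix genes, Edn1, the precursor of the vasoconstrictor endothelin-1 (chr13:42301476-42307990), was 1.67 and 1.35 FPKM in WT_DMSO, 2.31 and 4.06 in WT_FP, 27.1 and 25.0 in PKD_DMSO, and 12.6 and 19.7 in PKD_FP. Each PKD library was above each WT library, and the FP groups lay between the vehicle groups. Ltbp2, a matrix protein related to the binders of latent TGF-beta, had a difference of -1.72, on WT values of 0.04 to 0.82 FPKM and PKD values of 2.65 to 11.3. Hmga1, a chromatin architectural protein of proliferating cells, was 2.75 and 2.49 FPKM in WT_DMSO, 9.15 and 7.35 in WT_FP, 19.4 and 23.1 in PKD_DMSO, and 14.8 and 5.99 in PKD_FP, with a PKD_FP pair that was far apart. In 24 of the 30 genes, both PKD_DMSO libraries were above both WT_DMSO libraries; this shares the vehicle libraries with the drug differences and is no separate support.

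Several enzymes were in the same class. Gsta1, a glutathione S-transferase (chr9:78230669-78242683), had one of the smallest p-values of all genes: it was 4.25 and 2.73 FPKM in WT_DMSO, 12.9 and 15.5 in WT_FP, 72.4 and 45.4 in PKD_DMSO, and 18.9 and 17.4 in PKD_FP. The FP libraries of the 2 genotypes nearly met, from opposite sides. The drug difference was -1.61 in PKD and 1.77 in WT, and the difference of differences was -3.38 (SE 0.37, 95% interval -4.27 to -2.49; limma, adjusted p = 0.239). Near-identical family members can share reads with Gsta1, so its values are uncertain to that extent.

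Cyp2d9, a cytochrome P450 with close relatives in a gene cluster on chromosome 15, was 2.08 and 4.51 FPKM in WT_DMSO, 10.1 and 5.61 in WT_FP, 14.4 and 9.39 in PKD_DMSO, and 4.87 and 2.65 in PKD_FP, a difference of -2.50. Upp2, a uridine phosphorylase, was 5.94 and 8.95 in WT_DMSO, 16.2 and 13.9 in WT_FP, 7.84 and 3.10 in PKD_DMSO, and 0.41 and 1.36 in PKD_FP. Unlike Gsta1 and Cyp2d9, Upp2 had overlapping vehicle groups, and the FP groups were the ones far apart. Hpd, an enzyme of tyrosine breakdown, was 77.3 to 141 FPKM in WT and 6.66 to 14.7 in PKD, with a difference of -1.28. Clk2-scamp3, a readthrough entry of 2 neighbouring genes that share its reads, had a difference of -1.69 and is uncertain for that reason.

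Fat genes formed the last group of this class. Car3, a carbonic anhydrase abundant in fat (chr3:14863538-14872381), had the largest difference of the class, -4.48 with an SE of 2.10 (limma, adjusted p = 0.487). It was 4.05 and 3.90 FPKM in WT_DMSO, 6.09 and 237 in WT_FP, 24.1 and 28.0 in PKD_DMSO, and 3.92 and 19.3 in PKD_FP. The WT difference rested on WT_FP replicate 2, and without that library the difference of Car3 was -1.95. Plin4, a lipid droplet coat protein, was 0.76 and 0.75 FPKM in WT_DMSO, 1.77 and 3.82 in WT_FP, 6.2 and 6.89 in PKD_DMSO, and 1.31 and 0.99 in PKD_FP. Its groups were apart with either WT_FP library, and the difference of -2.87 (SE 0.39; limma, adjusted p = 0.327) was -2.47 without replicate 2.

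Of 22 adipocyte genes, 18 were measured, and 4 were opposite movers: Car3, Plin4, the lipid droplet gene Plin1 and the triglyceride lipase Pnpla2. The summed FPKM of the list was 2762 in WT_FP replicate 2 and 293 to 637 in the other 7 libraries, and the list's median difference of -2.00 was -0.25 without that library. In bulk kidney, fewer cells of a type and less RNA per cell cannot be told apart. Fat markers also varied among the PKD libraries. Cfd was 41.5 and 46.7 FPKM in PKD_DMSO and 3.78 and 35.4 in PKD_FP. Adipoq was 4.59 and 7.40 in PKD_DMSO and 1.08 and 6.87 in PKD_FP. The part of fat tissue in the other members' drug differences was not tested in either genotype. As measured above, 12 of the 30 left the class without WT_FP replicate 2, among them C3, Lrg1, Edn1, Plin1, Pnpla2, Ltbp2 and the cholesterol exporter Abca1.

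**Figure D2:**
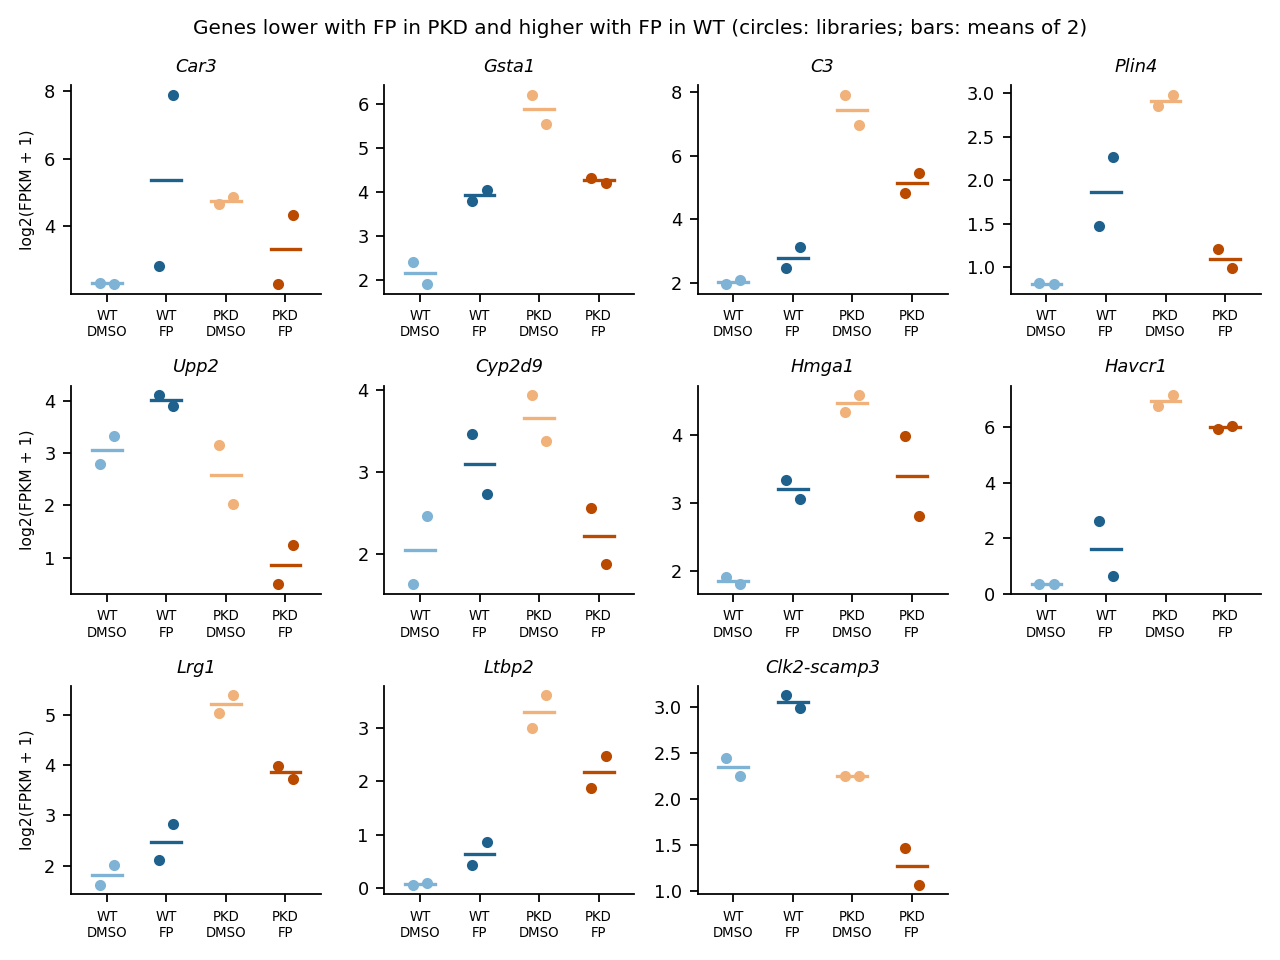
Expression of 11 named genes lower with FP in PKD and higher with FP in WT, as log2(FPKM + 1) per library (circles, replicate 1 at left) and group mean (bars, n = 2); each panel has its own axis, which need not start at 0. WT_FP lies above WT_DMSO and PKD_FP below PKD_DMSO in each panel. In Car3 and in Havcr1, 1 WT_FP library carries nearly all of the WT difference. The 2 WT_FP libraries are uneven in other panels too, with most of the WT difference from replicate 2 in C3 and Lrg1.

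The 9 genes of the other class were higher with FP in PKD and lower with FP in WT. Kap, the androgen-regulated kidney protein of proximal tubule cells (chr6:133849855-133853667), was 26700 and 25856 FPKM in WT_DMSO, 15475 and 19670 in WT_FP, 2696 and 1221 in PKD_DMSO, and 3039 and 4300 in PKD_FP. Each WT library was far above each PKD library, and the FP groups were closer to each other than the vehicle groups. The drug difference was 0.99 in PKD and -0.59 in WT, a difference of 1.58 with an SE of 0.54 (limma, adjusted p = 0.410). It was 1.01 without PKD_DMSO replicate 2, and Kap left the class there, without WT_FP replicate 1, under quantile normalization and with the length trend removed. The male-specific transcript Ddx3y was present in all 8 libraries, at 13.7 to 21.8 FPKM, and Xist was at most 0.13, so all libraries read as male. The window before the Kap start holds a TATA box 31 bases upstream, shown in capitals (RefSeq, GRCm38.p6, chr6:133853668-133853917, minus strand).
Kap: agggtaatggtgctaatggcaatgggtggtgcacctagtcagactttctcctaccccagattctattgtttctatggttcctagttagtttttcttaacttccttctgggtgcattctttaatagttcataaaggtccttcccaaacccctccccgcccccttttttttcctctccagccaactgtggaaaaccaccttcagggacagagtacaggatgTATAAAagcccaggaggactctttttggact

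Erdr1 (chrX:170010526-170018797) had the largest difference of this class, 3.39 with an SE of 0.63 (limma, adjusted p = 0.384). It was 699 and 416 FPKM in WT_DMSO, 137 and 304 in WT_FP, 131 and 153 in PKD_DMSO, and 436 and 738 in PKD_FP, so that PKD_FP stood at the level of WT_DMSO. The gene lies in the pseudoautosomal region and has near-identical copies, so its read assignment is uncertain. Mdk, the heparin-binding growth factor midkine, was 134 and 125 FPKM in WT_DMSO, 113 and 46.7 in WT_FP, 33.8 and 36.3 in PKD_DMSO, and 77.7 and 120 in PKD_FP. Its WT drug difference came mostly from WT_FP replicate 2; the difference was 2.27, and 1.64 without that library, where Mdk left the class.

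Gadd45gip1, a mitochondrial ribosome component, was 58.3 and 46.0 FPKM in WT_DMSO, 30.4 and 39.9 in WT_FP, 25.5 and 17.2 in PKD_DMSO, and 42.9 and 46.7 in PKD_FP, a difference of 1.62. Cox6a2, the muscle-type subunit of cytochrome c oxidase, was 7.97 and 5.16 in WT_DMSO, 3.88 and 1.19 in WT_FP, 0.17 and 0.08 in PKD_DMSO, and 0.44 and 1.17 in PKD_FP. Smlr1 was 3.8 and 5.10 in WT_DMSO, 2.61 and 0.98 in WT_FP, 0.35 and 0.34 in PKD_DMSO, and 1.05 and 1.08 in PKD_FP. Cox6a2 and Smlr1 were near or under 1 FPKM in PKD, so their PKD differences were between low levels. The other members were Derl3, a protein of endoplasmic reticulum quality control that passed the low-value filter through WT_DMSO alone, a RIKEN transcript and a small nucleolar RNA; 8 of the 9 genes had both PKD_DMSO libraries below both WT_DMSO libraries, again with shared vehicle libraries.

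**Figure D3:**
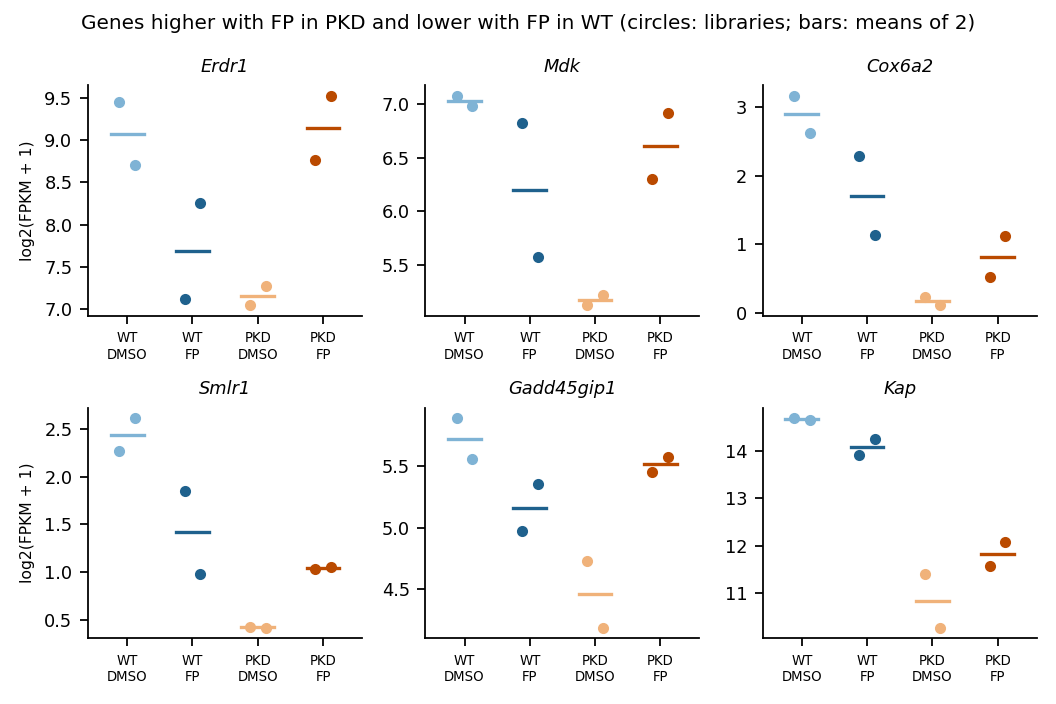
Expression of 6 named genes higher with FP in PKD and lower with FP in WT, as log2(FPKM + 1) per library (circles, replicate 1 at left) and group mean (bars, n = 2); each panel has its own axis, which need not start at 0. PKD_DMSO is the lowest group by mean in each panel and WT_DMSO the highest except in Erdr1, where PKD_FP reaches it.

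The genes with the smallest p-values included several whose WT drug difference was under 0.5 in size, the limit for opposite movers. The adult beta-globin gene Hbb-bt (chr7:103812524-103813923) was 80.2 and 87.3 FPKM in WT_DMSO, 104 and 117 in WT_FP, 6.10 and 9.04 in PKD_DMSO, and 59.8 and 67.0 in PKD_FP. PKD_DMSO stood far below the other 3 groups. Its difference was 2.54 with an SE of 0.28 (limma, adjusted p = 0.239), and it was the 1 gene called higher in PKD (2.93, adjusted p = 0.0225). The alpha-globin genes Hba-a1 and Hba-a2 differed by 2.42 and 2.05 (limma, adjusted p = 0.344 and 0.30); the globin copies are near-identical and can share reads. Summed over 10 erythroid genes, of which 7 passed the low-value filter, FPKM was 1605 to 1860 in WT, 207 and 288 in PKD_DMSO, and 958 and 978 in PKD_FP, and whether blood content or transcript level differed was not tested. At an unadjusted p under 0.05, 5 of the 7 were higher (4.45% of all genes) and 0 lower (6.78%).

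On the lower side, Gpam, the first enzyme of glycerolipid synthesis (chr19:55067635-55127319), was 4.04 and 5.30 FPKM in WT_DMSO, 7.30 and 6.46 in WT_FP, 8.54 and 10.6 in PKD_DMSO, and 2.22 and 1.32 in PKD_FP, a difference of -2.43 with an SE of 0.32 (limma, adjusted p = 0.327). Erbb3, a receptor of the EGF receptor family for neuregulins (chr10:128567523-128589635), was 4.34 and 6.45 in WT_DMSO, 6.75 and 8.82 in WT_FP, 16.4 and 18.1 in PKD_DMSO, and 4.70 and 4.54 in PKD_FP. Cdcp1, a membrane protein that is a substrate of Src family kinases, was 3.08 and 3.16 in WT_DMSO, 4.5 and 3.96 in WT_FP, 9.09 and 9.44 in PKD_DMSO, and 3.95 and 4.02 in PKD_FP. None of the 3 was an opposite mover: the WT groups did not overlap, but the WT difference was 0.48, 0.47 and 0.34 in Gpam, Erbb3 and Cdcp1, under the size limit. Hdhd3 and the non-coding Snhg9 were on the higher side, with differences of 1.49 and 1.28 (limma, adjusted p = 0.377 for each). The 1 gene called lower in PKD, Snord68, was 4.63 and 4.47 FPKM in PKD_DMSO and listed at 0 in the other 6 libraries; it passed the low-value filter through PKD_DMSO alone, so it had to differ, and it was singled out after its values were seen.

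For the drug's target, the data gave small differences with wide intervals. Cdk9 (chr2:32705782-32712784) was 25.2 and 19.1 FPKM in WT_DMSO, 22.2 and 26.1 in WT_FP, 27.3 and 25.4 in PKD_DMSO, and 30.8 and 38.8 in PKD_FP. The difference was 0.26, with a 95% interval of -0.39 to 0.90 that includes more than the size limit, and it was 0.06 without WT_DMSO replicate 1. Cyclin T1 (Ccnt1) had a difference of 0.50 and cyclin T2 (Ccnt2) of -0.22, both with intervals across 0, and leaving out single libraries turned the sign of each. The P-TEFb inhibitor Hexim1 had a difference of -0.23 (95% interval -0.77 to 0.32), and -0.03 without PKD_FP replicate 1. Larp7, which stabilises 7SK RNA, was 31.9 and 22.1 FPKM in WT_DMSO, 21.9 and 29.5 in WT_FP, 17.5 and 16.8 in PKD_DMSO, and 30.4 and 33.4 in PKD_FP, a difference of 0.92 (SE 0.31; limma, adjusted p = 0.406).

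Of 34 genes of P-TEFb and pause release, 16 had opposite signs (47.1%, against 47.4% of all genes), and none was an opposite mover. The median difference was -0.01. At an unadjusted p under 0.05, 2 were higher (4.45% of all genes) and 3 lower (6.78%), shares of the list near those of all genes: the elongation factor Eaf2 (0.70) and Larp7, against the super elongation complex scaffolds Aff4 (-0.89) and Aff1 (-0.71) and the elongation factor Eaf1 (-0.60). Aff4 was 16.04 and 20.8 FPKM in PKD_DMSO and 10.02 and 10.5 in PKD_FP, while all WT libraries lay between 9.03 and 11.3. The polycystin genes had differences of -0.49 for Pkd1 and -0.55 for Pkd2 (limma, adjusted p = 0.710 and 0.411), and Pkd1 was at -0.16 without WT_DMSO replicate 2 and -0.19 with the length trend removed. There was no overlap between the drug groups in Pkd2 in either genotype but drug differences of only -0.25 in PKD and 0.30 in WT.

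Genes with short-lived transcripts, which are known to respond early when CDK9 is inhibited, gave little. Of 17 short-lived survival genes, 10 had PKD lower and WT higher by sign (31.5% of all genes) and 0 the reverse (16.0%), with a median difference of -0.31, and -0.11 without WT_FP replicate 2. Mcl1, an anti-apoptotic BCL2 family member, was 52.7 and 42.9 FPKM in WT_DMSO, 51.2 and 53.7 in WT_FP, 124 and 124 in PKD_DMSO, and 97.1 and 103 in PKD_FP, a difference of -0.45 (limma, adjusted p = 0.494). The transcription factor Myc had a difference of -0.31 and Fos of 0.26 (limma, adjusted p = 0.753 and 0.820); they were at -0.10 without WT_DMSO replicate 2 and at 0.04 without PKD_FP replicate 2. In the list, Birc5 (survivin) was higher at 1.02 and the pro-apoptotic Bcl2l11 lower at -0.59, at unadjusted p of 0.0212 and 0.0367. Over 29 measured immediate-early genes, 11 had PKD lower and WT higher by sign (31.5% of all genes) and 1 the reverse (16.0%), and opposite signs in all were 41.4% against 47.4%. In this list 0 reached an unadjusted p under 0.05 (4.45% of all genes higher and 6.78% lower), and the median of -0.22 was 0.10 without WT_FP replicate 2.

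Glucocorticoid-responsive genes had the largest share of opposite signs among the pathways described. Of 17 measured, 13 had PKD lower and WT higher and 1 the reverse by sign (82.4% opposite, against 47.4% of all genes), with a median drug difference of -0.47 in PKD and 0.24 in WT and a median difference of -0.82. The median was -1.21 without WT_DMSO replicate 1 and -0.39 without WT_DMSO replicate 2. None was an opposite mover, and 5 were lower (6.78% of all genes) and 0 higher (4.45%) at an unadjusted p under 0.05. Fkbp5, a co-chaperone of the glucocorticoid receptor and a standard readout of it, was 22.1 and 26.1 FPKM in WT_DMSO, 29.8 and 21.2 in WT_FP, 53.2 and 66.2 in PKD_DMSO, and 23.0 and 17.8 in PKD_FP. PKD_DMSO stood above the other 3 groups, and the difference was -1.57 with an SE of 0.32 (limma, adjusted p = 0.384). The transcription factor Zbtb16 had a difference of -1.62, the kinase inhibitor Cdkn1a (p21) of -1.27 (-0.82 without WT_FP replicate 2) and the pyruvate dehydrogenase kinase Pdk4 of -1.47; Lcn2 is in this list too.

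No gene of lipid synthesis or fatty acid oxidation passed the adjusted threshold. Of 28 cholesterol and lipid synthesis genes, 25 had a lower drug difference in PKD (54.4% of all genes). At an unadjusted p under 0.05, 3 were lower (6.78% of all genes) and 0 higher (4.45%). The median drug differences were -0.39 in PKD and 0.07 in WT. Scd1, the stearoyl-CoA desaturase (chr19:44394450-44407709), was 23.2 and 48.4 FPKM in WT_DMSO, 44.3 and 108 in WT_FP, 36.0 and 26.8 in PKD_DMSO, and 9.42 and 7.52 in PKD_FP. Its PKD groups were apart and its WT groups overlapped, with drug differences of -1.77 in PKD and 1.02 in WT and a difference of -2.79 (SE 0.68; limma, adjusted p = 0.384). Of 33 fatty acid oxidation genes, 27 had a lower drug difference in PKD, with 5 lower (6.78% of all genes) and 1 higher (4.45%) at an unadjusted p under 0.05. The list's median difference was -0.39, and -0.68 without WT_DMSO replicate 2 and -0.19 without PKD_FP replicate 2. The regulator Ppara and the carnitine transferase Cpt1a had differences of -0.96 each, and the electron transfer flavoprotein subunit Etfb, the 1 higher, of 0.90 (0.58 without PKD_DMSO replicate 2).

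Proximal tubule markers did not share a direction in the difference of differences, with 12 of 30 higher (45.6% of all genes) and 18 lower (54.4%). Their median drug difference was -0.62 in PKD and -0.46 in WT. In PKD, FP and DMSO libraries did not overlap in 16 genes lower with FP (25.2% of all genes) and 3 higher (31.4%). Signs were opposite in 10 of the 30, 5 each way. The median difference of differences of -0.32 was 0.23 without WT_FP replicate 1, and -0.74 without either PKD_FP replicate 1 or WT_FP replicate 2. The neutral amino acid transporter Slc6a19 had a difference of -2.65, at 37.0 and 26.3 FPKM in PKD_DMSO and 4.80 and 4.02 in PKD_FP, with overlapping WT groups of 18.7 to 41.1. The inositol oxygenase Miox had a difference of 1.82 (1.20 without PKD_DMSO replicate 2), and was 203 and 85.9 FPKM in PKD_DMSO, 377 and 280 in PKD_FP, and 1305 to 2832 in WT. So among genes of the same cell type, Slc6a19 was lower with FP in PKD, like most of the list. Miox and Kap were among the 3 that were higher without overlap.

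Oxidative phosphorylation and ribosomal protein genes mostly had higher drug differences in PKD than in WT, and none passed the adjusted threshold. Of 46 oxidative phosphorylation genes, 32 had PKD higher and WT lower by sign (16.0% of all genes) and 2 the reverse (31.5%), with a median of 0.37 in PKD and -0.08 in WT, and 19 were higher (4.45% of all genes) and 0 lower (6.78%) at an unadjusted p under 0.05. The complex IV subunit Cox6c was 1708 and 1294 FPKM in WT_DMSO, 1286 and 1417 in WT_FP, 539 and 485 in PKD_DMSO, and 935 and 1045 in PKD_FP, a difference of 1.09. WT_FP overlapped WT_DMSO, and PKD_FP lay between PKD_DMSO and WT. Of 57 cytosolic ribosomal protein genes, 52 had a higher drug difference in PKD (45.6% of all genes), with a median of 0.49. At an unadjusted p under 0.05, 12 were higher (4.45% of all genes) and 0 lower (6.78%). None of these genes was an opposite mover.

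The drug differences moved with transcript length, which bears on these lists of short transcripts and on the opposite movers. Median length was 880.5 bases over 8 members higher in PKD, 2096 over 29 members lower in PKD and 3184 over all genes with a length. Across 13923 genes the Spearman correlation with length was -0.31 for the drug difference in PKD, 0.20 for that in WT and -0.37 for the difference of differences. When genes were split by length into 10 equal groups, the shortest group had a median difference of 0.38 and the longest -0.33. With each library's trend on length removed, the median difference of oxidative phosphorylation genes was 0.17 in place of 0.50 and that of ribosomal protein genes 0.14 in place of 0.49, and under quantile normalization 0.23 and 0.02. The glucocorticoid, complement and tubule injury medians were -0.90, -0.74 and -0.62 with the trend removed. Whether RNA quality or another property tied to length differed between libraries was not tested.

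**Figure D4:**
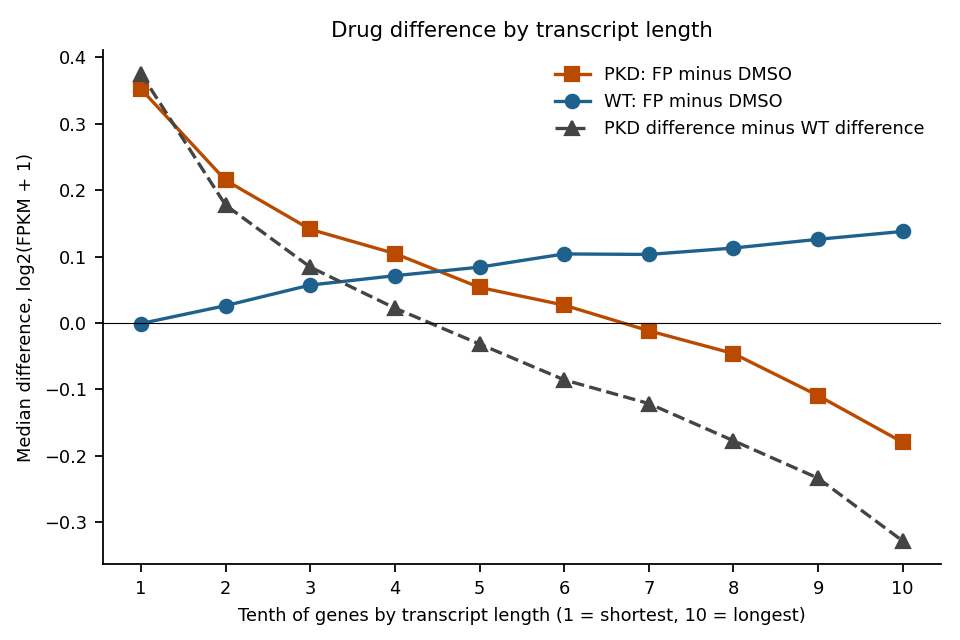
Median drug difference in PKD (squares) and WT (circles) and median difference of differences (triangles), on the log2(FPKM + 1) scale, over 13923 genes split into 10 equal groups by transcript length. The difference of differences goes from 0.38 in the shortest group to -0.33 in the longest.

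Lymphocyte genes were low in all libraries. Of 26 such genes only 10 passed the low-value filter, Cd3g and Zap70 among them through PKD_FP alone, so no count or median over the 10 is given. Over the 22 with an entry in the tables, summed without the filter, FPKM was 12.6 to 19.6 in WT, 11.4 and 12.9 in PKD_DMSO, and 22.1 and 24.3 in PKD_FP. The T cell receptor subunit Cd3g was 0.91 and 0.78 FPKM in WT_DMSO, 0.91 and 0.42 in WT_FP, 0.51 and 0.76 in PKD_DMSO, and 3.86 and 4.52 in PKD_FP. Only the PKD_FP libraries stood out in Cd3g, as its way through the filter requires, and its difference was 1.83 with an SE of 0.31 (limma, adjusted p = 0.377). The T cell kinases Zap70 and Lck had differences of 1.18 and 0.82. Macrophage and myeloid genes had a median of -0.29 over 26, which was 0.15 without PKD_DMSO replicate 2. At an unadjusted p under 0.05, 1 of the 26 was lower (6.78% of all genes), the lysozyme gene Lyz2 at -1.40, and 0 higher (4.45%). Mitosis and replication genes had positive drug differences in most members in both genotypes, with medians of 0.61 in PKD and 0.30 in WT over 30 genes. Signs were opposite in 3 (10%, against 47.4% of all genes). The difference of differences was above 0 in 28 (45.6% of all genes), with a median of 0.31. That median was 0.25 without PKD_FP replicate 1, 0.48 without PKD_FP replicate 2 and 0.32 with the length trend removed. At an unadjusted p under 0.05, 3 were higher (4.45% of all genes) and 0 lower (6.78%).

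**Figure D5:**
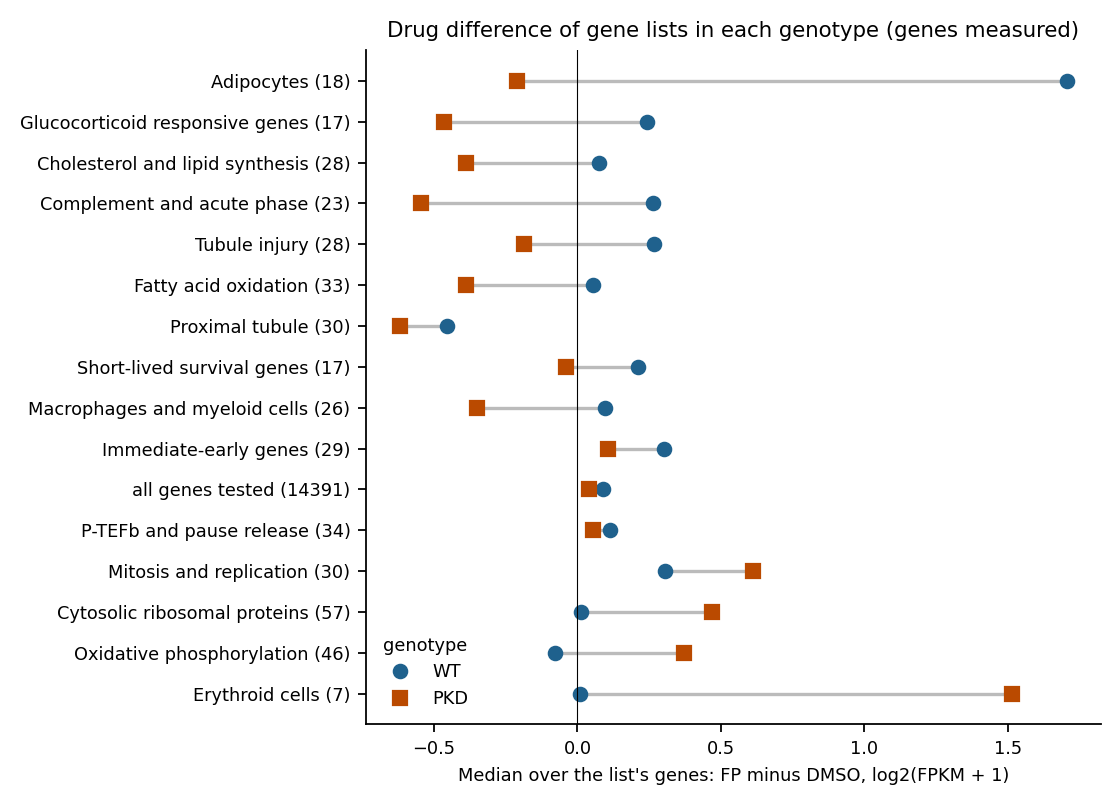
Median drug difference (FP minus DMSO, log2(FPKM + 1)) over the measured genes of each list, in WT (circles) and PKD (squares), with the number of genes in brackets; lists are ordered by the difference of differences. Adipocyte genes have the widest gap with WT higher (1.71 in WT and -0.21 in PKD), and erythroid genes the widest with PKD higher (0.01 in WT and 1.52 in PKD). Their median differences of differences, taken gene by gene and not drawn, were -2.00 and 1.59. The adipocyte value rests on WT_FP replicate 2 and was -0.25 without it.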

How the data were processed

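The deposited tables hold 1 value per gene and library that the file headers do not name; the values' range and their products with transcript length fit FPKM. The submitters' processing notes name Bowtie2, DESeq2 and mm10, with no version or role stated; the sources used here give no counting tool or annotation. Reads per library are unknown. The deposited FPKM were taken to log2(FPKM + 1) with no further scaling, and 4 entries of 2 repeated symbols and 1 dash entry were left out.

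A limma 3.58.1 model (R 4.3.3) with a mean per group was fitted over the 8 libraries (trend and robust settings, two-sided, Benjamini-Hochberg over 14391 genes), and tested on simulated data. Fold changes on this scale understate changes of low genes. Coordinates are RefSeq GRCm38.p6, the assembly of mm10 (13852 genes matched), and lengths the longest GENCODE transcript.

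The members, gene lists and tests were chosen with earlier results of these data known. The text names the 5 smallest p per direction, up to 12 opposite movers per class with a mean log2 of at least 1, up to 4 members per list described with the smallest p, and genes fixed for drug target and disease; 3 genes that this rule names are not reported here. Small nucleolar RNAs, microRNAs and predicted genes were passed over. Other members or markers named, among them Plin1, Pnpla2, Edn1, Hpd, Abca1, Peg3, Derl3, Eaf1 and Pdk4, were chosen after their values were seen. Alternatives were other filters, pseudocounts, scalings and limma settings, a replicate block and each library left out; removal of the length trend, other size limits and a crossed block were added after the data were seen.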

Additional observations from a re-analysis of the deposited data

How the results depend on the processing

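The count of 0 genes called for the difference of differences held in each fit with 1 library left out and under each other setting except one: with no low-value filter it was 7, all microRNA or small nucleolar RNA entries at 0 in most libraries. The 9 genes higher in PKD and lower in WT became 5 with a mean of at least 4 FPKM, 25 with a pseudocount of 0.1, 24 with median-of-ratios scaling and 20 with quantile normalization. The 30 genes of the other class became 81 with a pseudocount of 0.1, and 21, 24 and 22 under the stricter filter and the 2 scalings. These totals include new members. Of the 30, 20 stayed under median-of-ratios scaling and 16 under quantile normalization, and of the 9, 9 and 8 stayed. Lrg1 left under both scalings, and Cyp2d9 and Ltbp2 left under quantile normalization. With a size limit of 0.3 the classes held 57 and 156 genes, and with a limit of 1 they held 1 and 6. With the length trend removed they held 7 and 44; of the 8 and 29 members with a length, 4 and 26 stayed, and the 1 without in each class was not run. Leaving out 1 library gave 12 to 159 and 36 to 117, since 1 library in an arm makes no overlap easier to meet; the lone library is then assumed to vary like the others. WT_DMSO replicate 2 gave the 159, WT_FP replicate 1 the 117.

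The 2 genes called in PKD became 5 with no filter, 1 with the stricter filter, 1 with a pseudocount of 0.1, 5 without limma's trend and robust settings, 1 with the length trend removed, and 0 to 0 with 1 library left out; the 0 in WT became 3 with no filter and 1 without trend and robust settings. The cause was not tested. With the replicate number as a block, PKD had 1 call, WT 0 and the difference of differences 0. Same-numbered libraries did not deviate together in every pair of groups: correlations were -0.52, -0.18 and -0.43 between WT_DMSO and WT_FP, PKD_DMSO and PKD_FP, 0.15 and 0.48 between WT_FP and PKD_DMSO and PKD_FP, and 0.09 between PKD_DMSO and PKD_FP. A block with the WT_DMSO numbers exchanged gave 29, 0 and 0. The sign turned for Ccnt1 without WT_FP replicate 1 and for Ccnt2 without WT_DMSO replicate 2 or PKD_FP replicate 1: leaving out 1 library gave -0.0046 to 1.01 for Ccnt1 and -0.60 to 0.16 for Ccnt2. With the length trend removed, Ccnt2 was at 0.032.

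With 2 libraries per group, precision is limited by their number, and the read depth behind each FPKM is unknown, so no counting interval was given.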

Other observations

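Some genes had the same drug direction in both genotypes, with 42 higher and 8 lower under the limits used for opposite movers. Slc12a1, the sodium-potassium-chloride cotransporter of the thick ascending limb, was 336 and 242 FPKM in WT_DMSO, 365 and 452 in WT_FP, 100.1 and 92.7 in PKD_DMSO, and 145 and 222 in PKD_FP. The prostaglandin E2 receptor Ptger3 was 27.8 and 23.0 in WT_DMSO, 35.7 and 52.7 in WT_FP, 13.0 and 8.44 in PKD_DMSO, and 18.3 and 26.7 in PKD_FP. In both genes the WT libraries were above the PKD libraries of the same drug group. The histone chaperone Asf1b was 1.73 and 1.36 in WT_DMSO, 3.03 and 2.54 in WT_FP, 3.16 and 3.12 in PKD_DMSO, and 8.39 and 4.98 in PKD_FP. Among the 8 lower in both was H2-Aa, an antigen-presenting MHC class II chain, at 67.4 and 51.6 in WT_DMSO, 39.4 and 29.2 in WT_FP, 82.2 and 144 in PKD_DMSO, and 75.8 and 71.6 in PKD_FP. These 4 genes were chosen after their values were seen.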
